A study of Homo sapiens with 6 samples.

Results

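RAB GTPases are small membrane switches that cycle between a GTP-bound form, which recruits effector proteins, and a GDP-bound form. Exchange factors load them with GTP, GTPase-activating proteins return them to the GDP form, and prenyl groups attached near the carboxyl end hold them on membranes. Different RAB proteins mark different steps of vesicle traffic, and in breast cancer cells they are known for moving integrins, growth factor receptors and proteases to and from the cell surface. Transcripts of 57 RAB genes were examined here, out of 25706 rows of the gene table. They are the rows whose symbol is RAB followed by a number and at most 1 letter, and each symbol stood in 1 row. RAB3C, RAB19, RAB25, RAB39A, RAB39B, RAB41 and RAB44 were not analysed here.

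Poly(A) RNA was sequenced from MDA-MB-231, an established human line of triple-negative breast cancer. The overexpression group holds 3 libraries in which tsRNA-Gly-5-0006, a fragment of a glycine tRNA, was overexpressed. The control group holds 3 libraries from MDA-MB-231 cells labelled only as control. The labels name no vector, dose, time or clone, and do not say whether libraries of a group came from separate cultures, so the spread between them may be technical. The deposited counts summed to 73126731, 58870830 and 72488540 in overexpression 1, 2 and 3, against 54371226, 61201888 and 74586916 in control 1, 2 and 3. The tsRNA itself was not analysed here. VIM, a mesenchymal marker that the line is known to express, had 365 to 460 FPKM (fragment number scaled to transcript length and library size) over the 6 libraries, while PGR, CDH1 and EPCAM, which it is known to lack or nearly lack, had 0 to 0.283 FPKM. Overexpression 1 stood apart. Of 15951 genes that passed the filter on low counts, 1665 (10.4%) were over 2-fold above the mean of the other 5 libraries in overexpression 1, and 401 to 458 were so in each other library (2.51% to 2.87%). Results that rest on overexpression 1 are therefore given with and without it.

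In several groups of close paralogues, transcript levels lay far apart, and some of these paralogues sat apart in base composition as well. The coding stretches below surround the P-loop, the phosphate-binding motif of the GTP site. Those of RAB1, RAB5 and RAB11 are shown because a high-level paralogue of high GC content stands beside a low-level paralogue of lower GC content. RAB18 and RAB33B are shown because they deviated most in overexpression 1. By longest transcript, RAB8, RAB27 and RAB40 had the same order, but in RAB2, RAB6, RAB7 and RAB33 the higher-level paralogue had the lower GC content. RAB6A had 41.8% GC and a mean of 3.51 FPKM, against 50.5% and 0.214 FPKM for RAB6B. RAB4A (39.3% GC) and RAB4B (53.5%) had similar means, 7.91 and 8.07 FPKM. The order in RAB1, RAB5 and RAB11 was therefore not general among paralogues. Each stretch has 60 bases in the direction of the transcript, from GENCODE 29 on GRCh38, and capitals mark the 24 P-loop bases.
RAB1A: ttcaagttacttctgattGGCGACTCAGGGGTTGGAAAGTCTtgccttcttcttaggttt
RAB1B: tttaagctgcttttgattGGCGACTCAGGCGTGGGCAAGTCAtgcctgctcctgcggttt
RAB5A: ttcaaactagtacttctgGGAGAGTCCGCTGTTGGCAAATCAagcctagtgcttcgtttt
RAB5B: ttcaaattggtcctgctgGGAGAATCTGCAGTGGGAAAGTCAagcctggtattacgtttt
RAB5C: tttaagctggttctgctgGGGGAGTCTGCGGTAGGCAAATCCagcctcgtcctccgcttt
RAB11A: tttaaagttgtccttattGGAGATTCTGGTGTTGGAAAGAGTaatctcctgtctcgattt
RAB11B: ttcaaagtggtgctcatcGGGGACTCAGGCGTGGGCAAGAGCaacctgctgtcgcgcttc
RAB18: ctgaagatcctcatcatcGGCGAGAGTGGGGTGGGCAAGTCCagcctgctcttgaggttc
RAB33B: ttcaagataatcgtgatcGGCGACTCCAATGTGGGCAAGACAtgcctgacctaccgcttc
In the RAB11A stretch, 22 of 60 bases and 4 of 20 last codon positions are G or C, against 36 of 60 bases and 18 of 20 last positions in RAB11B. The RAB1A stretch has 26 G or C bases and that of RAB1B has 32. The RAB5A and RAB5B stretches have 27 each, and that of RAB5C has 34. RAB18 and RAB33B do not follow this: their stretches hold 35 and 31 G or C bases, although their longest transcripts have a GC content of 37.5% and 38.4%. The low GC content of these transcripts is therefore not seen in this part of the gene. Over the whole aligned coding sequence, RAB1A and RAB1B were 76.4% identical, RAB5A and RAB5C 73.4%, and RAB11A and RAB11B 73.7%.

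The RAB transcript pool was dominated by a few genes. RAB1B, RAB32, RAB34, RAB5C and RAB11B together held 80.4%, 82.0% and 85.2% of the summed RAB FPKM in overexpression 1, 2 and 3, against 84.6%, 83.8% and 84.5% in control 1, 2 and 3. The summed level of all 57 genes was 1430, 1347 and 1463 FPKM in the overexpression libraries and 1411, 1404 and 1423 FPKM in the control libraries, so the groups overlapped. Averaged over the 6 libraries, 13 members were at or above 10 FPKM, 22 lay between 1 and 10 FPKM, and 22 were under 1 FPKM. Of the 57 members, 54 passed the count filter. RAB33A, RAB3B and RAB6C did not, and had at most 0.168, 0.0733 and 0.033 FPKM. In bulk RNA, fewer cells that express a gene and less RNA per cell cannot be told apart.

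**Figure D1:**
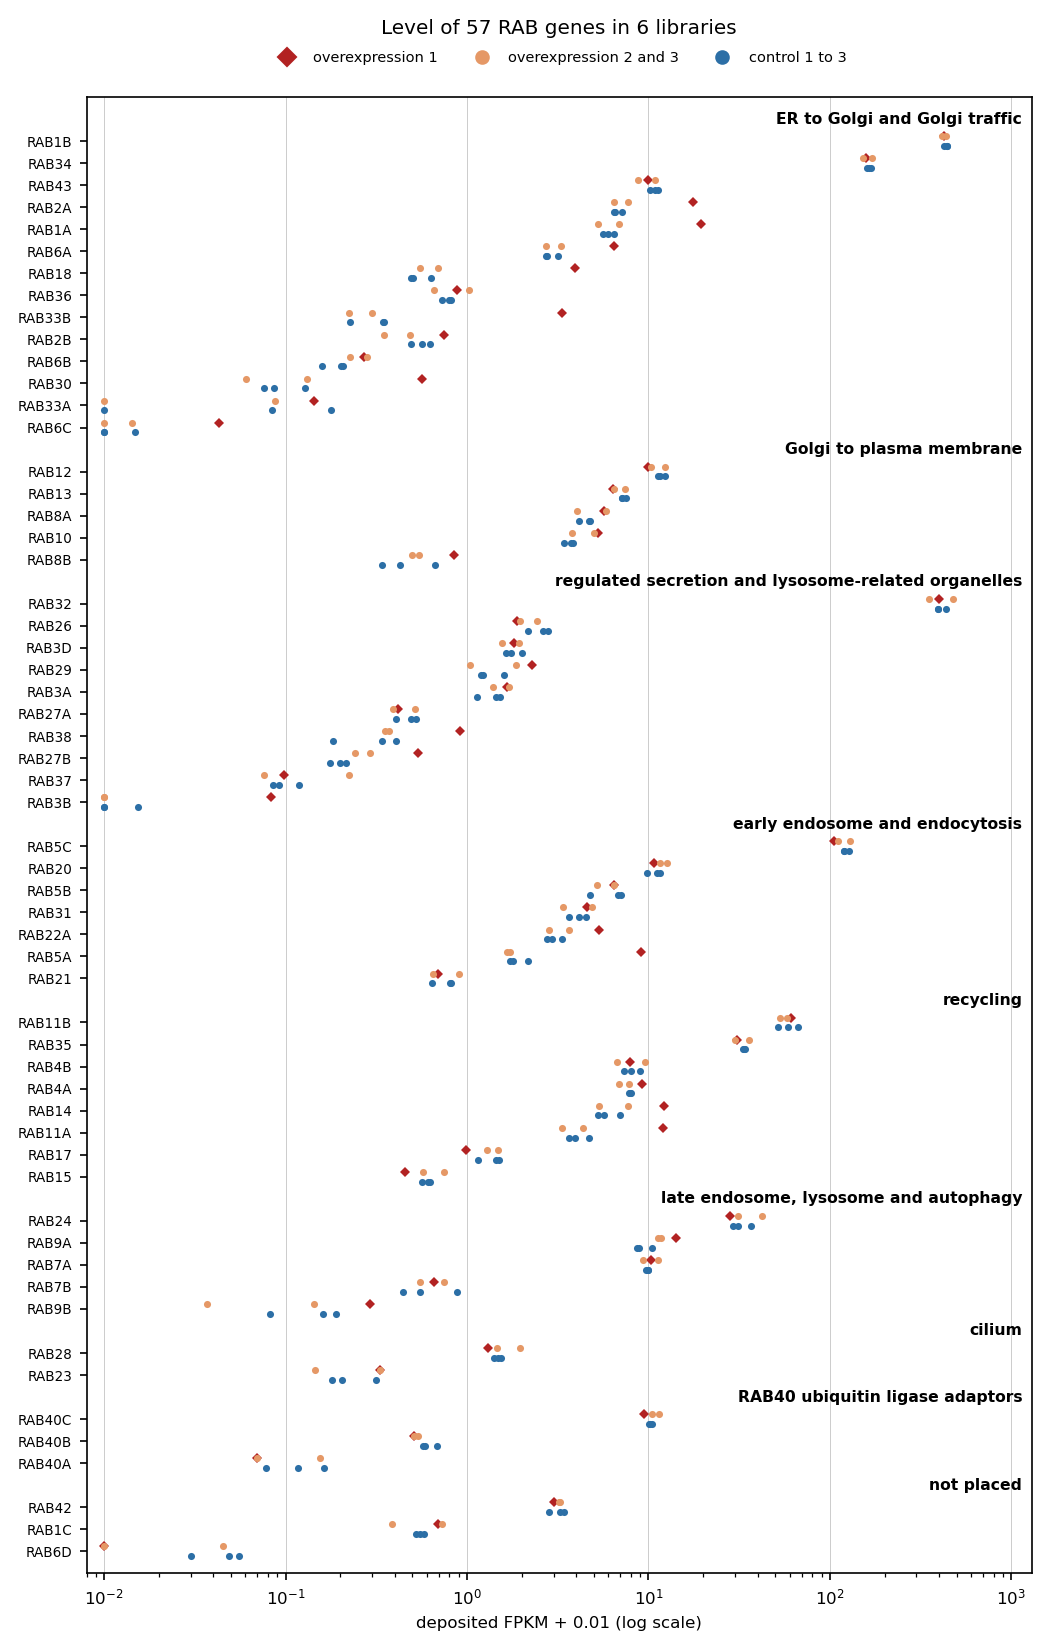
Deposited FPKM plus 0.01, on a log axis, of the 57 RAB genes in each of the 6 libraries, grouped by trafficking step and ordered by mean level. RAB1B and RAB32 sat at the top, with 353 FPKM or more in every library, and overexpression 1 (diamonds) lay away from the other libraries for genes such as RAB33B, RAB18 and RAB5A.

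Genes of ER to Golgi and intra-Golgi traffic held the largest share of RAB transcripts among the steps, 44.2% ± 1.09 in overexpression libraries and 44.6% ± 0.713 in control libraries (SD, n = 3 each). Nearly all of it came from RAB1B, which acts in ER to Golgi transport (chromosome 11, 66268590 to 66277492, hg38), and RAB34, a Golgi-associated RAB that also acts in cilium formation. RAB1B had 426, 413 and 435 FPKM in overexpression libraries, against 441, 444 and 427 FPKM in control libraries. The groups overlapped, and the edgeR log2 fold change, overexpression over control, was -0.08 (95% confidence interval -0.32 to 0.15). RAB43, also a Golgi RAB, had 9.91, 10.8 and 8.71 FPKM in overexpression libraries and 11.2, 10.2 and 10.9 FPKM in control libraries. Its groups overlapped, with a log2 fold change of -0.19 (95% confidence interval -0.41 to 0.03). A readthrough row, ISY1-RAB43, shares its exons and had 846 counts in overexpression 3 and 0 in the other 5 libraries, against 3416 counts for RAB43 in overexpression 3.

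Regulated secretion and lysosome-related organelles held 29.5% ± 3.21 of RAB transcripts in overexpression libraries and 29.5% ± 1.46 in control libraries (SD, n = 3 each). RAB32, which delivers cargo to melanosomes and related organelles (chromosome 6, 146543833 to 146554953, hg38), made up most of this. It had 399, 353 and 478 FPKM in overexpression libraries, against 396, 394 and 437 FPKM in control libraries. Overexpression 2 was the lowest and overexpression 3 the highest of the 6, so the groups overlapped, and the log2 fold change was -0.03 (95% confidence interval -0.42 to 0.36). The melanocyte genes MITF and PMEL summed to 0.235 to 0.458 FPKM in overexpression libraries and 0.25 to 0.545 FPKM in control libraries, and TYR, DCT, MLANA and TYRP1 were not analysed here. RAB3A and RAB3D, which dock secretory vesicles, were close to each other: RAB3D had 1.81, 1.93 and 1.54 FPKM in overexpression libraries and 2.0, 1.63 and 1.74 FPKM in control libraries. RAB3A had 1.66, 1.69 and 1.38 FPKM in overexpression libraries and 1.51, 1.43 and 1.13 FPKM in control libraries. Both pairs of groups overlapped, and RAB3B was at 0 in 4 of the libraries. RAB3D lies on the same strand as part of TMEM205, whose counts were 10247 to 14788 against 477 to 627 for RAB3D, so its level is uncertain.

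Early endosome genes held 10.4% ± 1.33 of RAB transcripts in overexpression libraries and 10.5% ± 0.356 in control libraries (SD, n = 3 each). RAB5C, an organiser of early endosome fusion (chromosome 17, 42124978 to 42155044, hg38), had 106, 129 and 110 FPKM in overexpression libraries, against 127, 120 and 119 FPKM in control libraries. Overexpression 1 and 3 lay below the controls and overexpression 2 above them, and the log2 fold change was -0.13 (95% confidence interval -0.36 to 0.10). RAB5B was much lower, with 6.44, 6.48 and 5.19 FPKM in overexpression libraries and 7.07, 6.81 and 4.76 FPKM in control libraries.

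Recycling genes held 8.67% ± 1.14 of RAB transcripts in overexpression libraries and 8.55% ± 0.584 in control libraries (SD, n = 3 each). RAB11B, which returns receptors from the recycling endosome (chromosome 19, 8389981 to 8404434, hg38), had 60.7, 57.8 and 53.2 FPKM in overexpression libraries, against 66.5, 59.1 and 52.0 FPKM in control libraries. The groups overlapped. RAB4A and RAB4B, of the fast recycling route, were nearly level with each other. RAB4A had 9.17, 7.78 and 6.89 FPKM in overexpression libraries and 7.85, 7.79 and 7.99 FPKM in control libraries. RAB4B had 7.89, 9.57 and 6.66 FPKM in overexpression libraries and 8.96, 7.30 and 8.05 FPKM in control libraries. The readthrough row RAB4B-EGLN2 overlaps RAB4B on the same strand, with 4597, 2192 and 4313 counts in overexpression libraries and 2145, 4473 and 5466 counts in control libraries. RAB4B itself had 2450, 2417 and 2063 counts in overexpression libraries and 2090, 1923 and 2585 counts in control libraries, so how reads were divided between the rows bears on its level.

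The remaining steps held little of the pool. Late endosome, lysosome and autophagy genes held 4.05% ± 0.304 in overexpression libraries and 3.71% ± 0.205 in control libraries (SD, n = 3 each). By library these were 3.74%, 4.07% and 4.35% in overexpression libraries and 3.56%, 3.62% and 3.94% in control libraries, so the groups overlapped. Their leading gene, RAB24, which acts in autophagy, had 28.1, 31.1 and 42.5 FPKM in overexpression libraries and 31.1, 29.3 and 36.9 FPKM in control libraries. MXD3, on the same strand as RAB24 and overlapping it, had 6779 to 10674 counts against 3802 to 6896 for RAB24. Golgi to plasma membrane genes held 1.99% ± 0.299 in overexpression libraries and 1.96% ± 0.101 in control libraries. RAB12 led them, and its place at this step is that of the list used here and is uncertain. It had 9.91, 12.3 and 10.3 FPKM in overexpression libraries and 11.3, 12.4 and 11.5 FPKM in control libraries. The RAB40 genes, whose products are substrate adaptors of cullin ubiquitin ligases, held 0.782% ± 0.0979 in overexpression libraries and 0.772% ± 0.0162 in control libraries. RAB40C had 9.47, 11.4 and 10.4 FPKM in overexpression libraries and 10.1, 10.4 and 10.2 FPKM in control libraries. RAB28, a cilium-associated RAB, had 1.29, 1.96 and 1.46 FPKM in overexpression libraries and 1.48, 1.52 and 1.40 FPKM in control libraries. RAB42, not placed at a step, had 3.0, 3.19 and 3.24 FPKM in overexpression libraries and 2.84, 3.41 and 3.23 FPKM in control libraries. In each of these genes the groups overlapped.

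No RAB gene passed the test between overexpression and control cells. By edgeR's quasi-likelihood test, 0 of 54 tested members had an adjusted p under 0.05, the smallest being 0.994, and 0 of 15951 genes did overall (0%). At an unadjusted p under 0.05 there were 2 members, RAB9A and RAB27B, both higher in overexpression libraries, which is 3.70% of the members against 3.83% of all tested genes (611 genes). Higher calls alone made up 2.56% of all tested genes, and lower calls 1.27%. DESeq2 called 0 members and 14 genes of 17520 with an adjusted p (0.0799%), and had 4 members at an unadjusted p under 0.05, RAB9A, RAB27B, RAB30 and RAB2A. These were 7.27% of the members, against 3.14% of all genes (2.43% higher and 0.714% lower), and all 4 were higher in overexpression libraries. The log2 fold change was positive in 30 of 54 members (55.6%), against 54.8% of all tested genes, and its median was 0.03 over the members and 0.02 over all genes. In 37 of 54 members the 95% confidence interval lay within 1 log2 unit to either side of 0. For the other 17 a change of 2-fold was not bounded by these libraries. Among steps, the log2 fold change was positive in 8 of 12 tested ER to Golgi and Golgi genes, with a median of 0.44, and -0.04 without overexpression 1. It was positive in 5 of 5 late endosome, lysosome and autophagy genes (median 0.03), in 2 of 8 recycling genes (median -0.06) and in 0 of 3 RAB40 genes (median -0.29). Without overexpression 1 it was positive in 5 of 12 ER to Golgi and Golgi genes, 4 of 5 late endosome genes (median 0.02, with RAB9B at -0.83), 2 of 8 recycling genes (median -0.05) and 1 of 3 RAB40 genes (median -0.11). The 26 tested members whose libraries are not listed individually had mean levels of 0.0232 to 162 FPKM and log2 fold changes of -1.37 (RAB6D) to 0.80 (RAB38), and the 95% interval left out 0 in 0 of them.

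**Figure D2:**
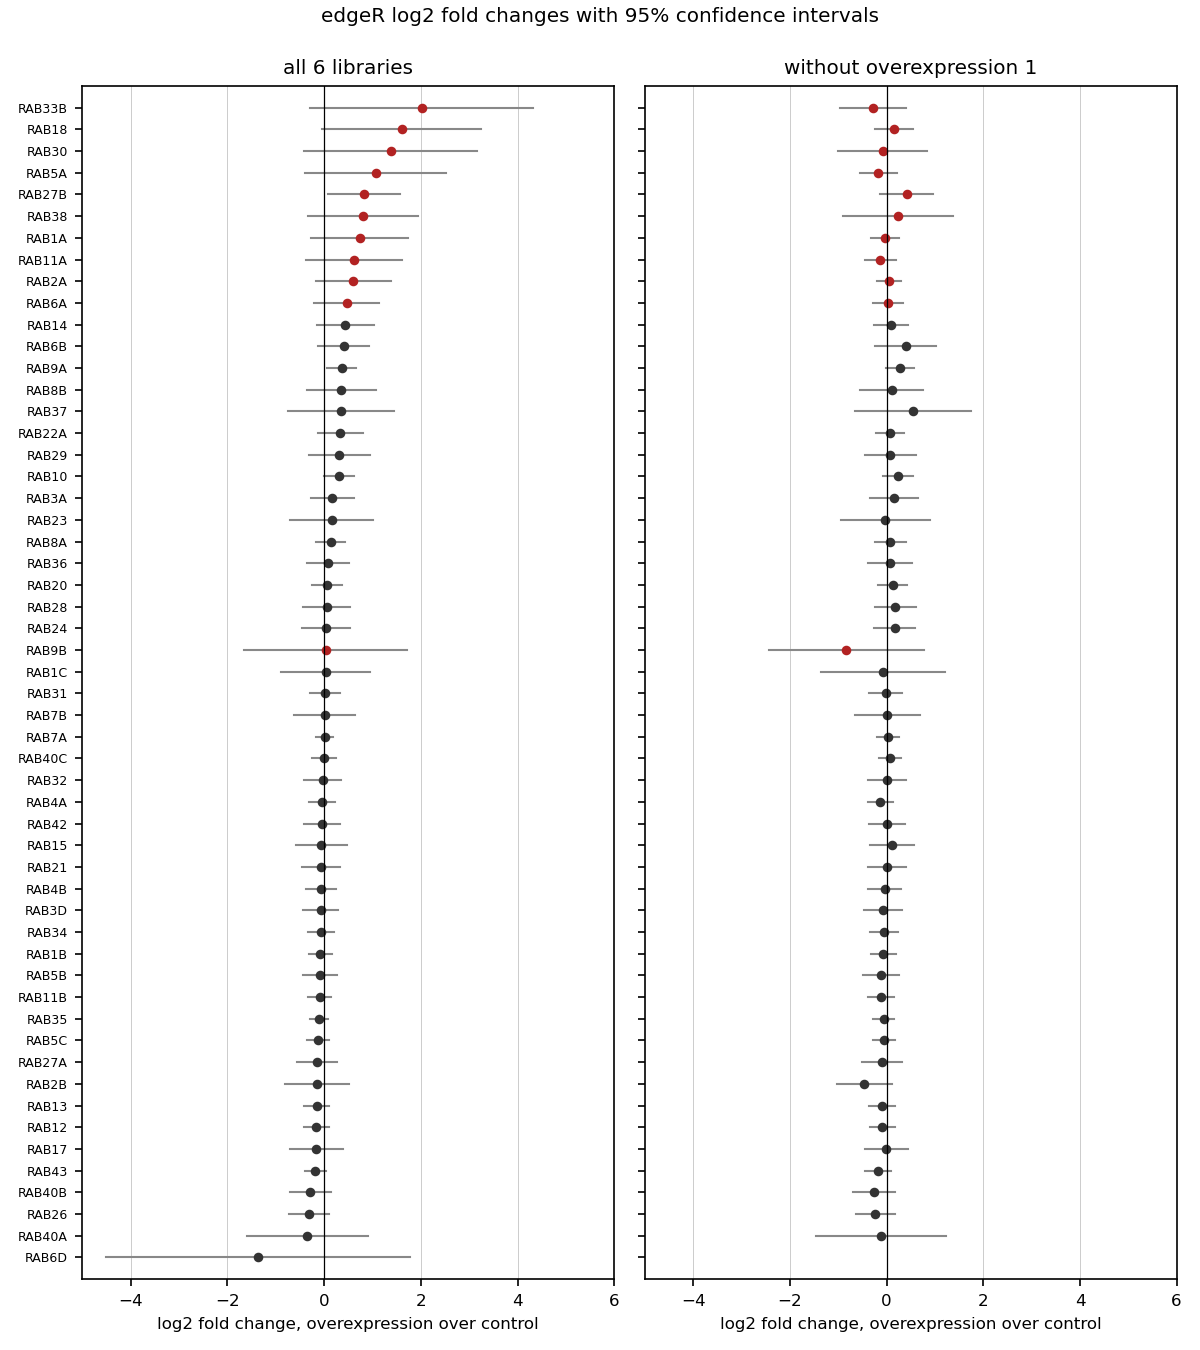
Log2 fold change, overexpression over control, of each tested RAB gene with its 95% confidence interval, from all 6 libraries (left) and without overexpression 1 (right). Red points are the 11 genes over 2-fold above the other libraries in overexpression 1, a choice that fixes their high values on the left; their median is -0.03 on the right, against 0.80 on the left.

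Levels scaled by TMM did not overlap between the groups in 8 of 54 members (14.8%), against 9.04% of all tested genes. TMM is also the method of the test, but here its factors were computed before the filter on low counts. RAB9A, RAB10, RAB27B and RAB6B were higher in every overexpression library (5.02% of all genes were), and RAB35, RAB13, RAB26 and RAB40B were lower (4.02% of all genes). In the deposited FPKM, which is scaled differently, 4 of the 8 did not overlap: RAB9A, RAB27B, RAB6B and RAB40B. RAB9A, which returns mannose 6-phosphate receptors from late endosomes to the Golgi (chromosome X, 13689128 to 13710504, hg38), had 14.1, 11.7 and 11.3 FPKM in overexpression libraries, against 8.63, 10.5 and 8.88 FPKM in control libraries. Every overexpression library lay above every control library. The log2 fold change was 0.36 (95% confidence interval 0.06 to 0.66, edgeR adjusted p = 0.994), and without overexpression 1 it was 0.27 (-0.02 to 0.57). RAB10, which carries cargo from the Golgi to the plasma membrane, had 5.24, 5.01 and 3.79 FPKM in overexpression libraries and 3.41, 3.81 and 3.73 FPKM in control libraries. Overexpression 3 lay among the controls in FPKM, and the log2 fold change was 0.31 (SE 0.13, edgeR adjusted p = 0.994). RAB27B, which docks exosome-bearing endosomes at the plasma membrane, had 0.527, 0.282 and 0.230 FPKM in overexpression libraries and 0.166, 0.190 and 0.206 FPKM in control libraries. Overexpression 1 was the highest and the groups did not overlap. Its log2 fold change was 0.82 (95% confidence interval 0.08 to 1.57, edgeR adjusted p = 0.994), and 0.41 without overexpression 1 (-0.14 to 0.97). RAB6B, a Golgi RAB best known from neurons, had 0.259, 0.270 and 0.217 FPKM in overexpression libraries and 0.193, 0.149 and 0.197 FPKM in control libraries, with a log2 fold change of 0.41 (SE 0.23). RAB6B lies opposite SRPRB, which had 1460 to 2055 counts against 61 to 124 for RAB6B, and the strand setting of the counting is not given in the sources used here. RAB26, which acts in granule secretion, had 1.88, 2.43 and 1.96 FPKM in overexpression libraries and 2.63, 2.77 and 2.17 FPKM in control libraries. Its log2 fold change was -0.32 (SE 0.18). For RAB40B, RAB13 and RAB35 it was -0.29 (SE 0.18), -0.15 (SE 0.11) and -0.11 (SE 0.08). RAB13 overlaps a row on the same strand with 481 to 794 counts, against 1164 to 1609 for RAB13. An offset for GC content in each library was added after seeing the data. With it the log2 fold change was 0.08 for RAB9A, 0.09 for RAB10, 0.31 for RAB27B and 0.40 for RAB6B. It was -0.30 for RAB26, -0.27 for RAB40B, -0.17 for RAB13 and -0.09 for RAB35.

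Without overexpression 1, 0 of 53 tested members had an adjusted edgeR p under 0.05, against 4 of 16213 genes (0.0247%). At an unadjusted p under 0.05 there were 0 members and 468 genes (2.89%, of which 1.31% higher and 1.58% lower). The groups did not overlap in 14 of 53 members (26.4%), against 16.4% of all genes. They were higher in 7 (8.49% of all genes) and lower in 7 (7.91%), and the 8 members named above were among the 14. Of 53 members, 26 had a positive log2 fold change (49.1%, against 51.6% of all genes). The interval lay within 1 log2 unit of 0 in 45 of 53 members.

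The widest gaps among the RAB genes lay in overexpression 1. There, 11 of 54 members (20.4%) were over 2-fold above the mean of the other 5 libraries on the scaled log2 level, against 10.4% of all tested genes. It was 1 member each in overexpression 2 (2.71% of all genes), overexpression 3 (2.87%), control 1 (2.68%) and control 2 (2.53%), and 0 members in control 3 (2.51%). RAB33B, a Golgi RAB that binds ATG16L1 in autophagy (chromosome 4, 139453232 to 139475870, hg38), had 3.34, 0.290 and 0.213 FPKM in overexpression libraries, against 0.216, 0.334 and 0.340 FPKM in control libraries. Overexpression 1 alone was high, and overexpression 2 and 3 lay within or below the controls. The log2 fold change was 2.02 (SE 0.98, edgeR adjusted p = 0.994) and -0.28 without overexpression 1. RAB18, which acts at the ER and on lipid droplets (chromosome 10, 27504174 to 27543207, hg38), had 3.91, 0.680 and 0.537 FPKM in overexpression libraries, against 0.482, 0.627 and 0.492 FPKM in control libraries. Its log2 fold change was 1.60 (SE 0.70, edgeR adjusted p = 0.994), and 0.15 without overexpression 1. RAB30, a Golgi RAB, had 0.553, 0.121 and 0.0508 FPKM in overexpression libraries and 0.0767, 0.118 and 0.0662 FPKM in control libraries. Overexpression 1 was again the high library, with log2 fold changes of 1.38 and, without overexpression 1, -0.08. RAB5A, the early endosome paralogue of RAB5C (chromosome 3, 19947097 to 19985175, hg38), had 9.03, 1.71 and 1.66 FPKM in overexpression libraries and 1.78, 2.15 and 1.71 FPKM in control libraries. Its log2 fold change of 1.07 (SE 0.62) became -0.18 without overexpression 1. RAB1A, of ER to Golgi transport, had 19.4, 6.84 and 5.26 FPKM in overexpression libraries and 6.01, 6.44 and 5.62 FPKM in control libraries. RAB11A, of the recycling endosome, had 12, 4.34 and 3.31 FPKM in overexpression libraries and 3.95, 4.68 and 3.65 FPKM in control libraries. RAB2A, which acts between ER and Golgi, had 17.7, 7.75 and 6.41 FPKM in overexpression libraries and 6.45, 7.17 and 6.55 FPKM in control libraries. Without overexpression 1 the log2 fold changes of RAB1A, RAB11A and RAB2A were -0.03, -0.13 and 0.04, against 0.73, 0.61 and 0.60 with it. The other 4 of the 11 were RAB38, RAB9B, RAB27B and RAB6A. RAB6A lay just inside the 2-fold limit, at a log2 deviation of 1.06, and RAB14 just outside it, at 0.92. Because the 11 genes were picked for their level in overexpression 1, their median log2 fold change of 0.80 is fixed by that choice. Without overexpression 1 it was -0.03, with 5 of 11 positive.

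Base composition moved with these deviations. The 11 genes had a GC content of 35.9% to 46.5% in their longest transcript (median 38.4%), against a median of 52.7% in the other 43 tested members. Of 22 tested members under 43% GC, 10 were over 2-fold in overexpression 1 and 12 were not, RAB9A, RAB4A and RAB10 among them. The share among all tested genes under 43% GC is not given here, so these counts are not read as particular to RAB genes. Across the 54 members, Spearman's rho between GC content and the deviation of overexpression 1 was -0.58, against -0.41 across 15338 tested genes. The rho over the members was 0.0921 in overexpression 2 and 0.401 in overexpression 3, and 0.602, 0.0569 and 0.401 in control 1, 2 and 3. Over all tested genes it was -0.071 and 0.265 in overexpression 2 and 3, and 0.293, -0.00983 and 0.241 in control 1, 2 and 3. These points share their libraries and are not independent. Transcript length also went with the deviation of overexpression 1, with a rho of 0.336 over the members and 0.25 over all tested genes. Over the members, mean FPKM had a rho of 0.41 with GC content and -0.46 with length, against 0.344 and -0.277 over all tested genes. In the other 5 libraries the 11 genes had mean levels of at most 6.87 FPKM. With the same GC offset, the log2 fold change was 1.3 for RAB33B, 0.92 for RAB18, 0.76 for RAB5A and 0.66 for RAB30, 0.22 for RAB1A, 0.16 for RAB2A and 0.05 for RAB11A. It was 0.71 for RAB38, 0.23 for RAB6A and -0.41 for RAB9B. Fibroblast markers also had a higher sum in overexpression 1: 12 of 14 listed genes were in the table, 8 passed the filter, and none was at 0 in all libraries. They summed to 16.8, 7.11 and 4.52 FPKM in overexpression libraries, against 6.69, 6.02 and 5.93 FPKM in control libraries. The sum does not show how many of them were higher. Of the markers of MDA-MB-231 itself, CAV1 had 50.5 FPKM in overexpression 1, against 18.9 to 24.3 FPKM in the others. FOSL1 had 147 FPKM, within the range of the others. Leukocyte markers summed to 14.8 FPKM, also within the range of the others (13.4 to 17.2). The part of base composition, transcript length, level and these markers in the RAB values was not tested.

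**Figure D3:**
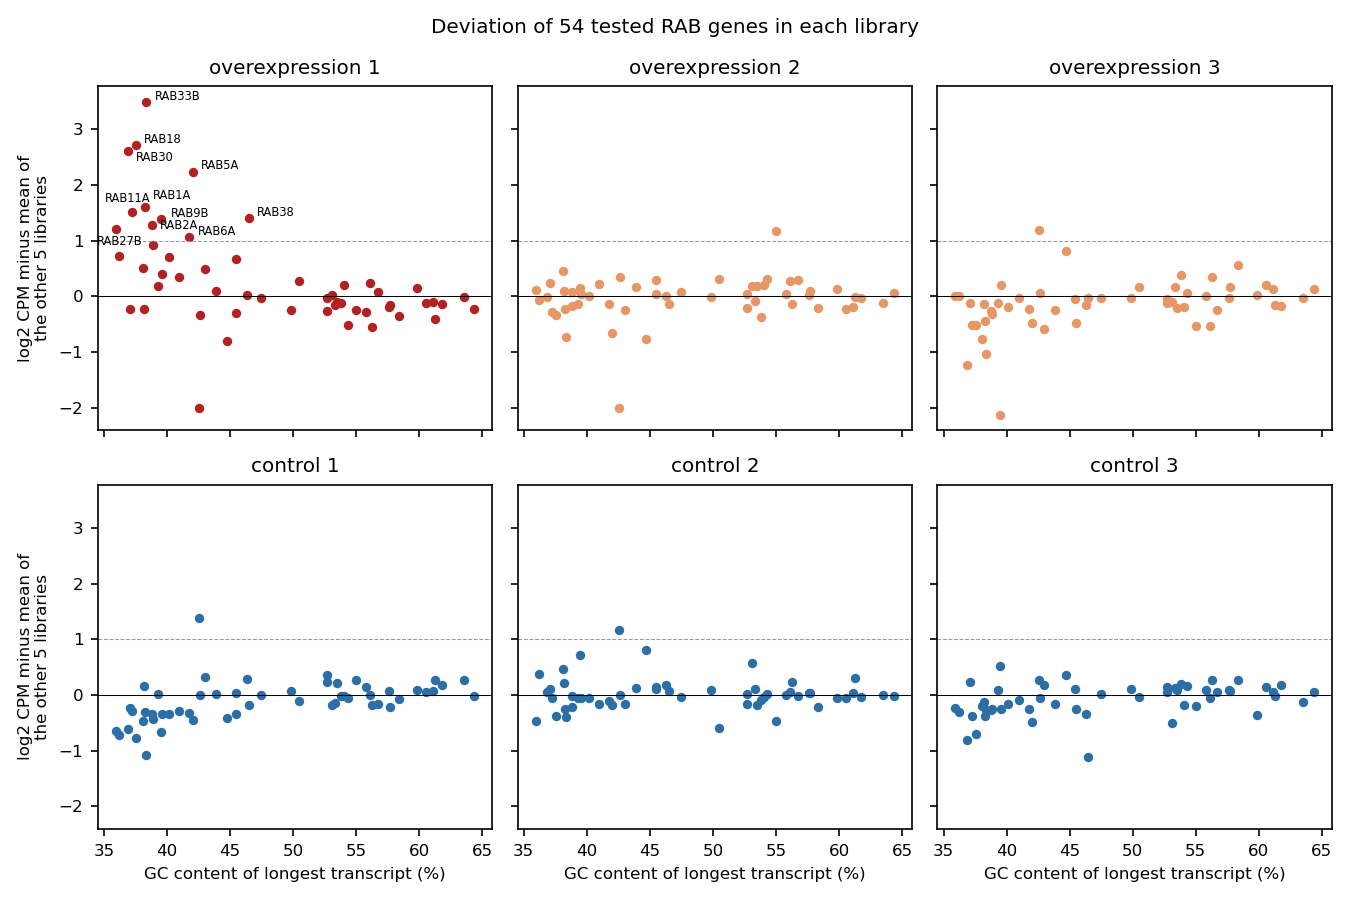
Log2 level of each of the 54 tested RAB genes minus its mean in the other 5 libraries, against the GC content of its longest transcript, in 1 panel per library. The dashed line marks 2-fold, and the 11 named genes above it in overexpression 1 lie between 35.9% and 46.5% GC.

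The balance between paralogues also differed in overexpression 1. RAB1A, RAB5A, RAB11A and RAB27B were among the 11 genes picked for their level there. Their larger part there is therefore largely fixed by that choice. RAB1B stood 22.0 times above RAB1A in FPKM in overexpression 1, and 60.4 to 82.7 times above it in the other 5 libraries. RAB5C stood 11.7 times above RAB5A in overexpression 1, and 55.8 to 75.5 times above it in the others. For RAB11B over RAB11A the ratio was 5.08 in overexpression 1, against 12.6 to 16.8. Pairs without a picked gene moved less. RAB5C over RAB5B was 16.4 in overexpression 1, against 17.6 to 25.0 in the others. RAB3D over RAB3A was 1.09, against 1.12 to 1.55. RAB4A over RAB4B had a smaller gap, 1.16 in overexpression 1 against 0.813 to 1.07 in the others. RAB27B made up 56.3%, 35.8% and 37.5% of RAB27 transcripts in overexpression libraries, against 25.6%, 26.9% and 34.2% in control libraries. The rest was RAB27A, its partner in exosome release, and every overexpression library lay above every control library. RAB27A overlaps PIGBOS1 on the same strand, which had 222 to 372 counts against 326 to 392 for RAB27A, so this share is uncertain. In all, 17 of the 57 members overlap a row whose highest count is at least 10% of theirs, 7 of them on the same strand. Levels of RAB6C and RAB6D are uncertain too, since their coding sequences were 99.5% identical to each other and 96.2% and 96.3% identical to that of RAB6A. RAB1C, annotated in the table as a processed pseudogene, had 0.681, 0.718 and 0.376 FPKM in overexpression libraries and 0.542, 0.568 and 0.513 FPKM in control libraries.

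**Figure D4:**
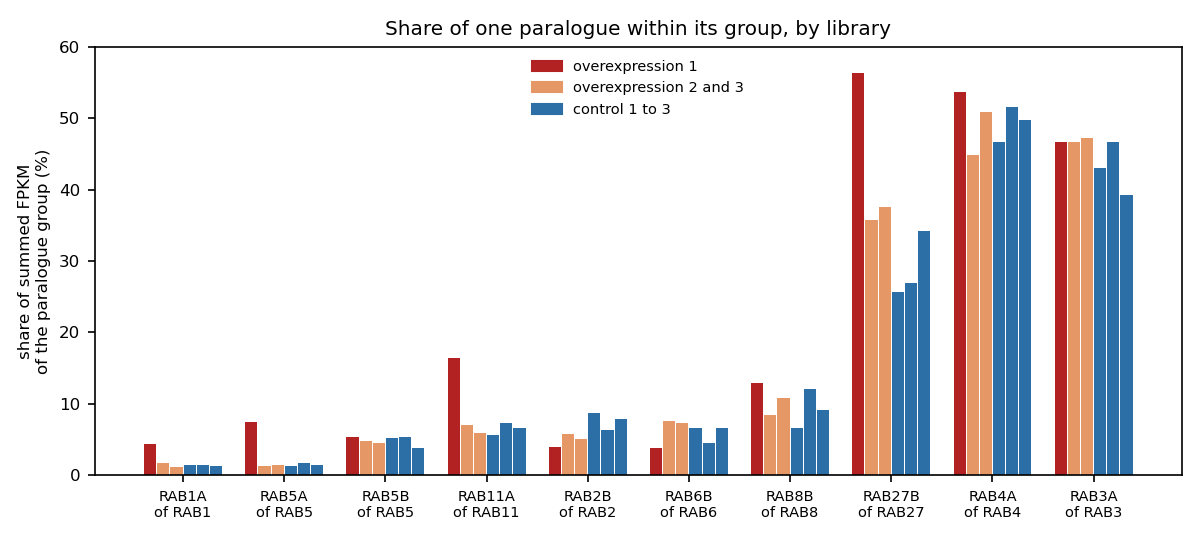
Share of 1 paralogue in the summed FPKM of its paralogue group, as 1 bar per library. RAB1A, RAB5A, RAB11A and RAB27B, picked for their level in overexpression 1, had their highest share there (4.34%, 7.44%, 16.5% and 56.3%). So did RAB5B, RAB8B and RAB4A (5.31%, 12.9% and 53.7%), closer to the other libraries. RAB2B and RAB6B had their lowest share there (3.99% and 3.84%), and RAB3A neither its highest nor its lowest.

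Genes that act on RAB proteins did not pass the test either. In the fit with all libraries, the count with an adjusted edgeR p under 0.05 was 0 of 14 for prenylation and GDP dissociation, 0 of 53 for exchange factors, 0 of 35 for GTPase-activating proteins and 0 of 57 for effectors. The log2 fold change was positive in 8, 30, 21 and 35 of them, with medians of 0.04, 0.04, 0.04 and 0.08, against 0.02 over all tested genes. Over all tested genes, 54.8% were positive. Without overexpression 1 the medians were -0.00, -0.04, -0.01 and -0.00. At an unadjusted edgeR p under 0.05, 5 of these genes were higher in overexpression libraries (CHM, ANKRD27, EVI5, RILPL1 and APPL1) and 1 was lower (SH3BP5L). By list this was 1 higher of 14, 1 higher and 1 lower of 53, 1 higher of 35, and 2 higher of 57. Of all tested genes, 3.83% were under that edgeR p, 2.56% higher and 1.27% lower. CHM, ANKRD27 and EVI5 were all under 1 FPKM and were chosen after their values were seen. CHM, which presents RAB proteins for prenylation, had 0.496, 0.184 and 0.0810 FPKM in overexpression libraries and 0.0953, 0.0703 and 0.10 FPKM in control libraries. Its groups overlapped, and the log2 fold change was 1.39 (SE 0.58), or 0.47 without overexpression 1. EVI5, a GTPase-activating protein, had 0.250, 0.129 and 0.107 FPKM in overexpression libraries and 0.0529, 0.0695 and 0.0659 FPKM in control libraries. Its groups did not overlap, and the log2 fold change was 1.29 (SE 0.33, edgeR adjusted p = 0.994), or 0.87 without overexpression 1. ANKRD27, an exchange factor for RAB21, had 0.530, 0.427 and 0.462 FPKM in overexpression libraries and 0.289, 0.362 and 0.293 FPKM in control libraries. Its groups did not overlap either, and the log2 fold change was 0.54 (SE 0.19), or 0.48 without overexpression 1. SH3BP5L, an exchange factor for RAB11, had 7.01, 8.64 and 6.70 FPKM in overexpression libraries, against 9.46, 10.8 and 10.2 FPKM in control libraries. Every overexpression library lay below every control library, and the log2 fold change was -0.49 (SE 0.10, edgeR adjusted p = 0.994). Without overexpression 1 it was -0.44 (SE 0.12). RILPL1, an effector of RAB8 and RAB10, had 1.65, 1.89 and 1.63 FPKM in overexpression libraries and 1.42, 1.29 and 1.27 FPKM in control libraries, with a log2 fold change of 0.33 (SE 0.13). APPL1, an effector of RAB5, had 3.17, 0.658 and 0.284 FPKM in overexpression libraries and 0.282, 0.464 and 0.275 FPKM in control libraries. Overexpression 1 was again the high library, and the log2 fold change was 1.92 (SE 0.78), or 0.40 without it. GDI2, which extracts GDP-bound RAB proteins from membranes, had 20.1, 17.2 and 12.4 FPKM in overexpression libraries and 14.2, 15.0 and 12.5 FPKM in control libraries, and the groups overlapped.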

How the data were processed

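Per the submitters' processing notes, reads were trimmed and aligned to hg38 with tools that include cutadapt 1.9, HISAT2 2.0.4 and StringTie 1.3.4d. The annotation release and strandedness are not given in the sources used here. The deposited expected counts are whole numbers, and their low values cluster at 1 and multiples of 4. For that reason they carry no counting interval here. FPKM was calculated by the authors.

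Counts of all genes were tested with edgeR 4.0.16 (R 4.3.3): quasi-likelihood test, TMM scaling, filterByExpr with a minimum count of 10, group as the only term, 2-sided, Benjamini-Hochberg adjustment over 15951 genes, threshold 0.05. The biological coefficient of variation was 30.7%. The procedure was tested on simulated data. The deviation of a library sets its log2 CPM against the mean over the remaining 5. GC content and coding sequences come from GENCODE 29, and 96.2% of tested genes had a GC value.

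RAB genes given in every library are the highest of each trafficking step, the 10 with the smallest p, and members of paralogue groups with 2 or more genes at a mean of 1 FPKM. Of the regulator and effector lists, genes were named from the 4 with the smallest p per list among those at a mean of 1 FPKM or more in the higher group. The sequence windows, overlapping genes and other members were chosen after their values were seen. The members and lists were chosen with earlier results of these data known.

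Alternatives were scaling by RLE or by the upper quartile, dropping the filter, requiring a mean of 5 FPKM, DESeq2 1.42.0, limma 3.58.1 on log2(FPKM + 1) and log2(FPKM + 0.1), a replicate block, each library left out, same-symbol rows summed, counts divided by 4, and, added after seeing the data, a GC offset with a loess span of 0.3. The labels do not say that replicate numbers pair the libraries, and the main test did not use them as pairs.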

Additional observations from a re-analysis of the deposited data

How the results depend on the processing

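Without a library in turn, 0 to 4 genes of the whole table had an adjusted edgeR p under 0.05, with 4 without overexpression 1 and 2 without overexpression 2, against 0 with all libraries. DESeq2 gave 14. No RAB gene passed in any alternative run. The 2 RAB genes at an unadjusted p under 0.05 became 3 with upper-quartile scaling, 3 with no filter and 1 with a mean FPKM of at least 5. They became 4 with DESeq2, 1 with limma at either pseudocount and 0 with the GC offset. With a library left out there were 0 to 11: 0, 5 and 11 without overexpression 1, 2 and 3, and 0, 1 and 0 without control 1, 2 and 3. The 5 of 54 members (9.26%) stand beside 1120 of 16587 genes (6.75%), and the 11 of 53 members (20.8%) beside 1837 of 16288 genes (11.3%). The share of all genes was 2.89% with a mean FPKM of at least 5, 3.14% with DESeq2 and 3.51% with the GC offset. With limma it was 2.41% and 2.49%, and with the replicate block 2.75%. It was 2.89% without overexpression 1, and 1.85%, 2.32% and 2.37% without control 1, 2 and 3. Requiring a mean FPKM of 5 or more, 9 of 21 tested RAB genes were positive, and the share over all genes in that run is not given here. Under the replicate block 1 RAB gene was at an unadjusted p under 0.05. The labels do not say that equal replicate numbers pair libraries, so the numbers were not taken as pairs. Between libraries with the same number, the deviations of genes from their group means correlated at -0.03, 0.04 and 0.07. With 3 libraries per group, these values cannot settle whether libraries were paired. The cause of these differences was not tested.

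Of 838 recomputed single-gene values, 60 changed sign, 42 of them with a library left out, and 0 passed the threshold. Upper-quartile scaling gave -0.02 for RAB1C, RAB31, RAB7A and RAB7B and -0.06 for RAB9B. The replicate block gave -0.00084 for RAB1C and -0.32 for RAB9B. RAB40C was 0.02 with a mean FPKM of at least 5 and 0.03 with limma, and RAB4A was 0.0037 and 0.0031 with limma. The GC offset gave -0.22 for RAB23, -0.07 for RAB28, -0.10 for RAB31, -0.04 for RAB7A, -0.08 for RAB8B and -0.41 for RAB9B. With each library left out, log2 fold changes ranged from -0.13 to 0.9 for RAB11A, -0.16 to 0.0008 for RAB11B, -0.21 to 0.11 for RAB15, -0.03 to 1.02 for RAB1A, -0.08 to 0.23 for RAB1C, -0.0096 to 0.13 for RAB20, -0.17 to 0.02 for RAB21, -0.02 to 0.43 for RAB23, -0.24 to 0.17 for RAB24, -0.09 to 0.18 for RAB28, -0.46 to 0.03 for RAB2B, -0.08 to 1.84 for RAB30, -0.04 to 0.12 for RAB31, -0.23 to 0.1 for RAB32, -0.28 to 2.52 for RAB33B, -0.19 to 0.0018 for RAB34, -0.02 to 0.19 for RAB36, -0.24 to 0.61 for RAB37, -0.15 to 0.01 for RAB3D, -0.07 to 0.07 for RAB40C, -0.13 to 0.003 for RAB42, -0.13 to 0.02 for RAB4A, -0.16 to 0.01 for RAB4B, -0.18 to 1.47 for RAB5A, -0.23 to 0.02 for RAB5B, -0.01 to 0.02 for RAB7A, -0.17 to 0.32 for RAB7B, -0.83 to 0.51 for RAB9B. The share of each step, averaged over libraries of both groups, moved by at most 1 SD when a library was left out. Leaving out 1 library cannot move such a mean by more than that, so no stability is read from it. It also says nothing of the difference between the groups. Low members such as RAB6D, with 0 to 11 counts, have wide intervals.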
